A study of Homo sapiens with 24 samples.

Results

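The 10 desmosome genes described here were followed across 4 human cancer cell lines and their response to cold atmospheric plasma. The genes were DSG2 and DSG3 (desmogleins), DSC2 and DSC3 (desmocollins), JUP (plakoglobin), PKP1, PKP2 and PKP3 (plakophilins), DSP (desmoplakin) and PERP. They were chosen by symbol as the known parts of the junction, each matched 1 row, and together they are 10 of the 61533 genes in each table. Cal27 and Fadu are squamous carcinoma lines of the tongue and the hypopharynx, Hth83 is known as an anaplastic thyroid carcinoma line and A375 as a melanoma line, whereas the labels call all 4 head and neck cancer cells of WT genotype. Each line had 3 untreated libraries (Control, 0 s) and 3 libraries from cells exposed for 60 s to plasma from a piezoelectric device (CAP), and the labels give 24 h for the treatment. Cal27, A375 and Hth83 were grown in DMEM and Fadu in MEM, so line and medium cannot be told apart for Fadu. The labels number the libraries of a group 1 to 3 and do not say whether they are separate cultures, so each p-value reflects library-to-library spread that may be technical. Total counts ran from 27882581 (Cal27 Control 1) to 49514338 (A375 Control 1) per library.

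Desmosomes are spot-like junctions that rivet epithelial cells to their neighbours and anchor the intermediate filaments of the cytoskeleton. Desmogleins and desmocollins, both cadherins, meet their partners in the space between the cells. Inside the cell their tails bind plakoglobin and plakophilins, which bind desmoplakin, and desmoplakin holds the keratin filaments. DSG2 and DSC2 are the widely expressed cadherins, while DSG3 and DSC3 belong to the basal layers of stratified epithelium, and PERP is a membrane protein needed for desmosome assembly in such epithelia.

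The stretches upstream of the 4 genes with the largest falls in Fadu are shown first, since these falls are the largest responses of well-expressed members. RefSeq windows (GRCh38.p14, 250 bases before to 50 after a start site) were at hand for 8 of the 10 members, all except PKP2 and PKP3. Only bases before the first annotated start are printed, 5' to 3' on the strand of the gene. These are chr1:201283256-201283451 for PKP1, chr18:31042816-31042992 for DSC3 (minus strand), chr6:7541421-7541574 for DSP and chr18:31447491-31447740 for DSG3. Capitals mark a match to the E-box CACCTG, read here on the other strand as CAGGTG.
PKP1: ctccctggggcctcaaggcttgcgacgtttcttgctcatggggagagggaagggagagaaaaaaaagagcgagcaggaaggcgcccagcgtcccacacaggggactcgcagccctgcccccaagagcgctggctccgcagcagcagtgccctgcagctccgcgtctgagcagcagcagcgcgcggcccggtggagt
DSC3: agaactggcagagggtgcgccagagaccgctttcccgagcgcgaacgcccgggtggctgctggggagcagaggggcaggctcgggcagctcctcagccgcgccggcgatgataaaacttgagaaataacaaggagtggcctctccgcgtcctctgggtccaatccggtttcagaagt
DSP: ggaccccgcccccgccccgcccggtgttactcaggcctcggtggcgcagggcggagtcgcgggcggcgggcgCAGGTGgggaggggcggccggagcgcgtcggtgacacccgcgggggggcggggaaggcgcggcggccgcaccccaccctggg
DSG3: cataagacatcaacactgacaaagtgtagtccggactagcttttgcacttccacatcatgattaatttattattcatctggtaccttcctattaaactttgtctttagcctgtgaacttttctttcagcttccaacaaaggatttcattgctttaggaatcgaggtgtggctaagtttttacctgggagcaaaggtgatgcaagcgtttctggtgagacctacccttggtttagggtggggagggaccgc
Next, 3 motifs were searched on both strands of each window, namely this E-box, which SNAI and ZEB repressors bind, the AP-1 site TGANTCA and the grainyhead-like site AACCGGTT. The E-box stood in the windows of 4 members (DSG2, DSC2, JUP and DSP) and in 20.6% of 35116 windows of all genes. The 8 members had 10 windows, as DSC2 and JUP had more than 1 each and matched in only 1. The share of all genes is per window. In DSP the E-box lay 178 and 85 bases before the start site, of which the first is in the printed stretch. The AP-1 site stood in PERP alone, 101 bases before its start, and in 7.71% of all windows, and the grainyhead-like site stood in none of the members and in 0.134% of all windows. No member's window matched more than 1 of the 3 motifs, and PKP1, DSC3 and DSG3 matched none. The GC content of the windows was 77.0% for DSP, 67.3% for PKP1, 63.3% for DSC3 and 44.0% for DSG3, beside a median of 58.7% over all windows.

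In untreated cells the desmosome genes were highest in Fadu and lowest in A375. Their summed TPM (transcripts per 1000000, a level per length that can be compared between genes) was 2357 ± 1.86 (SD, n = 3) in Fadu, 1414 ± 42.1 in Hth83, 722 ± 11.2 in Cal27 and 163 ± 3.14 in A375. Across the lines each gene is given in CPM (counts per 1000000 of the library total after TMM scaling of all 12 untreated libraries), fitted with edgeR's quasi-likelihood test. All 10 members differed among the 4 lines, where 94.8% of 21975 genes tested did. All 10 were higher in Cal27 than in A375 (36.6% of genes higher and 43.1% lower), in Fadu than in A375 (A375 higher for 41.3% of genes and lower for 37.2%) and in Hth83 than in A375 (A375 higher for 40.7% and lower for 34.2%). Cal27 exceeded Fadu for 1 member and was below it for 9 (35.7% and 37.1% of genes), and it exceeded Hth83 for 2 and was below it for 8 (36.7% and 35.5%). Fadu exceeded Hth83 for 8 members and was below it for 2 (37.8% and 34.9%). Each step in the order of the lines passed the test for every member, although the order of Cal27 and Fadu for PKP3 depended on the scaling and the unit.

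**Figure D1:**
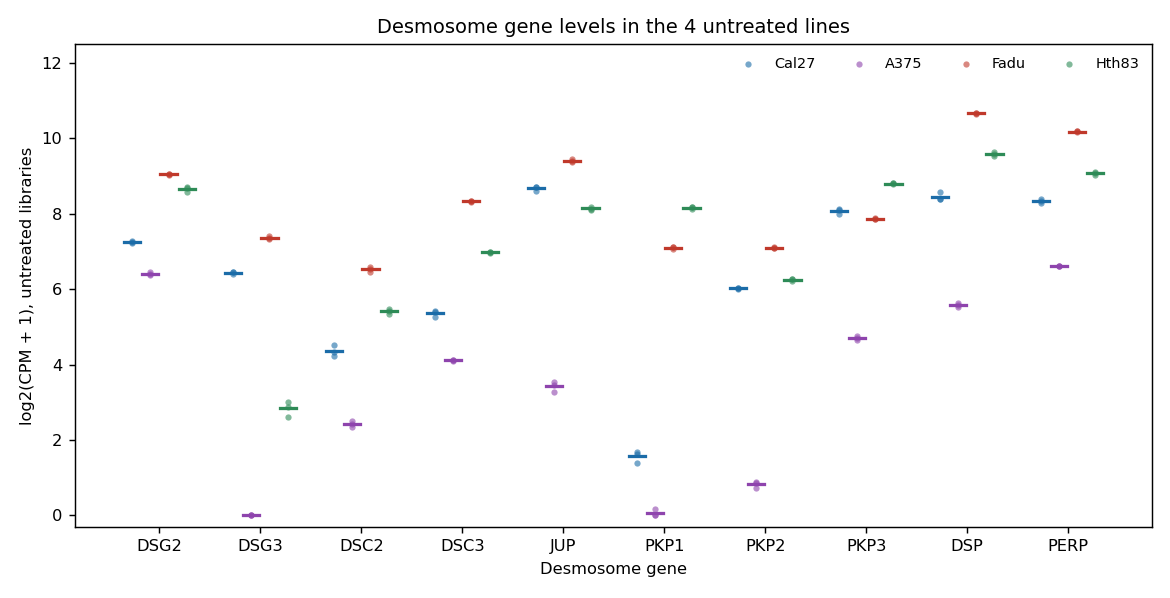
Levels of the 10 desmosome genes in the untreated libraries, as log2(CPM + 1) on the vertical axis; each point is a library and each bar the mean of 3, coloured by line. Fadu was highest for 8 of the genes by mean, with PKP1 and PKP3 highest in Hth83, and the A375 points were lowest for all 10, with DSG3 at 0.

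Among the desmogleins, DSG3 separated the lines far more than DSG2. DSG2 stood at 522, 534 and 526 CPM in the Fadu libraries, 378, 407 and 414 CPM in Hth83, 148, 150.2 and 155 CPM in Cal27 and 84.0, 82 and 86.1 CPM in A375. The lines did not overlap, and the range from highest to lowest was 6.28-fold. DSG3 stood at 161, 162 and 168 CPM in Fadu, 83.6, 87.3 and 86.3 CPM in Cal27 and 5.11, 6.30 and 7.11 CPM in Hth83, and had no count in any of the 6 A375 libraries. Against a floor of 3 counts over the untreated A375 group, DSG3 was at least 6047-fold higher in Fadu, at least 3168-fold higher in Cal27 and at least 228-fold higher in Hth83. Cal27 and Fadu thus held both desmogleins, whereas Hth83 and A375 held nearly only DSG2. DSG3 made up 48.3% ± 0.4995 (SD, n = 3) of the summed DSG2 and DSG3 TPM in Cal27, 33.7% ± 0.564 in Fadu and 2.46% ± 0.284 in Hth83.

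Both desmocollins followed the order Fadu, Hth83, Cal27, A375. DSC3 stood at 319, 321 and 321 CPM in Fadu, 124, 125 and 125 CPM in Hth83, 37.3, 41.6 and 41.1 CPM in Cal27 and 16.5, 16.2 and 16.4 CPM in A375. DSC2 was lower, at 91.3 ± 4.47 CPM (SD, n = 3) in Fadu, 41.5 ± 2.01 CPM in Hth83, 19.6 ± 2.09 CPM in Cal27 and 4.39 ± 0.287 CPM in A375. Per length DSC3 was the larger of the pair in each line, with 62.5% ± 3.85 of their summed TPM in Cal27, 71.1% ± 0.992 in Hth83, 74.2% ± 0.945 in Fadu and 75.3% ± 1.38 in A375. DSC2 in A375 rests on 142 to 225 counts per untreated library.

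Among the proteins of the plaque, plakophilin usage differed by line. PKP1, the plakophilin of suprabasal and stratified epithelium, stood at 288, 281 and 286 CPM in Hth83 and 139, 133 and 137 CPM in Fadu. It stood at 1.63, 2.24 and 2.08 CPM in Cal27 and in A375 had 4 counts in 1 of the 3 untreated libraries and none in the others. Cal27, a squamous line, was therefore 68.4-fold below Fadu and 143-fold below Hth83 for PKP1 (log2 difference -6.10 ± 0.084 and -7.16 ± 0.081, SE; adjusted p = 6.7e-39 and 6.622e-42). PKP2, the most widely expressed plakophilin, reached 136 ± 1.30 CPM (SD, n = 3) in Fadu, 74.7 ± 1.70 CPM in Hth83, 64.1 ± 0.821 CPM in Cal27 and 0.769 ± 0.101 CPM in A375. PKP3 reached 444 ± 3.68 CPM in Hth83, 268 ± 14.7 CPM in Cal27, 233 ± 3.63 CPM in Fadu and 25.2 ± 0.909 CPM in A375. The order of Cal27 and Fadu for PKP3 turned with the scaling, since Cal27 was higher by 0.20 ± 0.037 on the log2 scale in CPM (adjusted p = 8.03e-06) and lower by limma on log2(TPM + 1), at -0.20 (adjusted p = 0.00097). In edgeR with CPM scaled by library size alone the difference was 0.03 and did not pass (adjusted p = 0.536).

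PKP3 supplied most of the plakophilin transcripts in every line. It held 97.1% ± 0.192 (SD, n = 3) of the summed PKP1, PKP2 and PKP3 TPM in Cal27, 99.6% ± 0.108 in A375, 84.9% ± 0.212 in Hth83 and 82.5% ± 0.0292 in Fadu. PKP1 held 13.5% ± 0.233 in Hth83, 11.95% ± 0.0938 in Fadu and 0.179% ± 0.0302 in Cal27.

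In Fadu, PERP, DSP and JUP were the 3 leading members by TPM. JUP, the armadillo protein shared with adherens junctions, stood at 700.3, 669 and 663 CPM in Fadu, 415, 414 and 389 CPM in Cal27, 275, 281 and 291 CPM in Hth83 and 8.64, 10.5 and 10.0 CPM in A375. Cal27 thus exceeded Hth83 for JUP, by 1.44-fold (adjusted p = 2.471e-15). DSP, the link to keratin, stood at 1641, 1592 and 1626 CPM in Fadu, 734, 794 and 763 CPM in Hth83, 337, 332 and 379 CPM in Cal27 and 45.1, 48.4 and 46.9 CPM in A375. Fadu was 34.7-fold above A375 for DSP and 70.5-fold above it for JUP. PERP stood at 1158 ± 7.53 CPM (SD, n = 3) in Fadu, 537 ± 12.6 CPM in Hth83, 321 ± 10.9 CPM in Cal27 and 96.9 ± 0.247 CPM in A375, the smallest spread between lines after DSG2. By TPM the leading members were PERP in Fadu (875) and A375 (78.8), and PKP3 in Hth83 (473) and Cal27 (237).

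The other desmosomal cadherins, DSG1, DSG4 and DSC1, which belong to the outer layers of epidermis and to hair, were near absent in all lines. The highest of them was DSG1 in untreated Fadu, at 1.05 ± 0.246 CPM (SD, n = 3). They lie on chromosome 18 (GENCODE 29, GRCh38) between the members DSC3 (30990008 to 31042815) and DSC2 (31058840 to 31102522) on one side and DSG3 (31447795 to 31478702) and DSG2 (31498043 to 31549008) on the other. The expressed cadherin genes thus flank near-absent ones within 1 cluster. PKP1 is on chromosome 1, PKP2 on 12, PKP3 on 11, JUP on 17, and DSP and PERP on 6. DSG2 overlaps the antisense gene DSG2-AS1 and DSC2 overlaps DSCAS, and the sources used here do not give whether counting used strand. These antisense genes averaged at most 1.63 CPM and 0.171 CPM in any group.

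The labelled cell type was checked against marker lists, and 9 of the 12 squamous markers also belong to the filament, hemidesmosome or transcription factor lists used further on. Marker sums, medians and counts over 10 CPM here use TMM within each line, while single genes use the scaling of all 12 untreated libraries. The sums of different lines are thus on separate scales. The 12 squamous markers summed to 5911 to 6204 CPM in the untreated libraries of Cal27, 10880 to 11300 CPM in Fadu, 7601 to 8091 CPM in Hth83 and 32.3 to 35.6 CPM in A375. In A375 the 8 melanocyte markers summed to 1237 to 1264 CPM. SOX10 led them, at 1040 ± 9.32 CPM (SD, n = 3) in the scaling of all 12 untreated libraries. Only 3 of the 8 were over 10 CPM there, and the median of the 8 was 1.475 CPM. TP63, KRT5 and CDH1 were at or below 0.05 CPM on average in A375, so its labelled head and neck type lacks those markers. In untreated Hth83 the 7 thyroid markers summed to 128 to 129.3 CPM, with 1 of them over 10 CPM and 2 without counts. Of the 12 squamous markers 11 were over 10 CPM there. Hth83 combined TP63 (406 ± 12.4 CPM) and the desmosome genes with 780 ± 8.63 CPM of VIM and only 0.210 ± 0.0888 CPM of CDH1, a cadherin of adherens junctions. Of the 12 adherens junction genes listed further on, 10 were over 10 CPM in untreated Hth83. CDH1 stood at 346 ± 0.996 CPM in Fadu and 240 ± 14.1 CPM in Cal27, where VIM was at 0.131 ± 0.0204 and 0.563 ± 0.165 CPM. High desmosome gene levels were therefore found with CDH1 in Cal27 and Fadu and nearly without it in Hth83.

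With CAP the desmosome genes fell in Fadu and moved in both directions elsewhere. In Fadu 9 of 10 fell and none rose, where 53.3% of 19152 genes tested passed the test, 26.3% upward and 27% downward. In Cal27 4 rose and 4 fell (45.1% of 17371 genes passed, 21.9% upward and 23.2% downward). In Hth83 2 rose and 5 fell (50.1% of 17279 genes passed, 25.9% upward and 24.2% downward). In A375 8 members could be tested, of which 1 rose and 4 fell (50.5% of 19604 genes passed, 25.7% upward and 24.8% downward). The median log2 fold change of the tested members was -0.55 in Fadu, -0.16 in A375, -0.09 in Hth83 and 0.06 in Cal27, beside 0.01, -0.02, 0.00 and 0.00 over all genes tested. CPM here are scaled by TMM within each line, and a gene passed when its p from edgeR's quasi-likelihood test, adjusted by Benjamini-Hochberg over all genes of that line, was under 0.05. In bulk RNA, fewer cells of a type and less RNA per cell cannot be told apart.

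**Figure D2:**
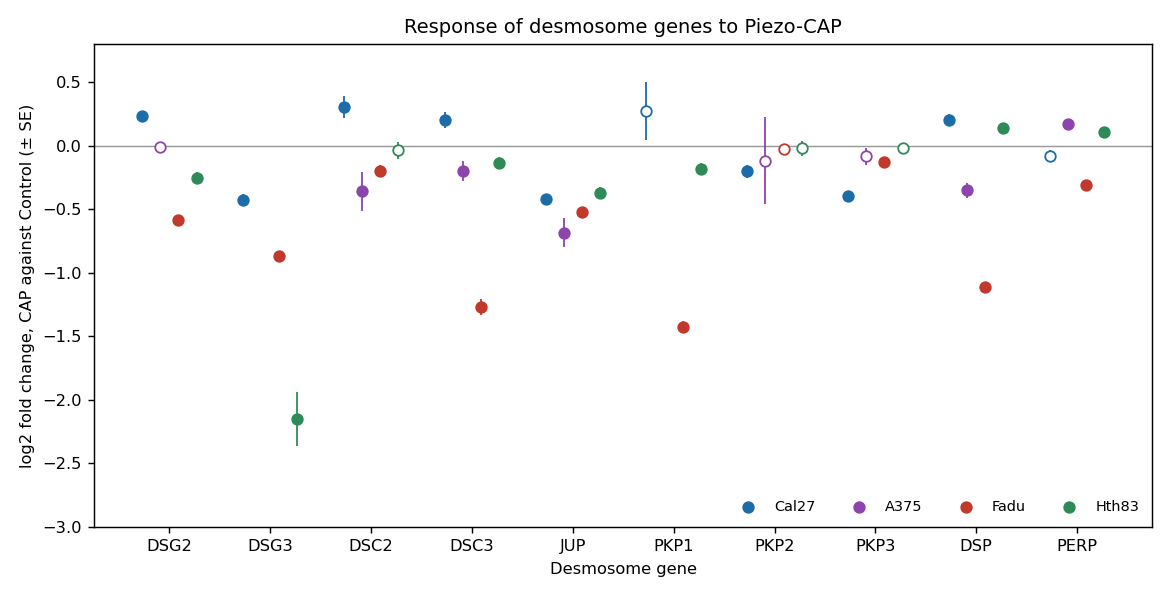
Log2 fold change of CAP against Control for each desmosome gene (horizontal axis) and line (colour), with bars of ± SE from edgeR; filled points passed an adjusted p of 0.05 and open points did not. The Fadu points for PKP1, DSC3 and DSP lie below -1 and only DSG3 in Hth83 lies lower; DSG3 and PKP1 were not tested in A375.

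The response itself differed between lines for most members. In a joint fit of the 24 libraries, the line by treatment interaction passed for 9 of the 10 members, where 56.9% of 23642 genes did, and PKP2 did not pass (adjusted p = 0.098). The smallest adjusted p-values were those of DSP (1.38e-23), DSC3 (1.076e-22) and PKP1 (6.43e-18). For DSG3 and PKP1 the A375 arm of that fit rests on 0 and 4 counts. For PKP2 the call depended on the processing, as it passed with DESeq2 (adjusted p = 0.0251) and with RLE size factors (0.0473), with a length trend removed (1.647e-05), and without A375 CAP 3 (0.0310) or Hth83 CAP 1 (0.0211).

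Of the desmogleins, DSG3 fell with CAP in each of the 3 lines that expressed it, and DSG2 fell in 2. DSG3 in Fadu went from 173, 175 and 182 CPM in the Control libraries to 101, 97.99 and 91.6 CPM with CAP, with no overlap (log2 fold change -0.87 ± 0.040, SE; adjusted p = 3.314e-35). In Cal27 it went from 79.4, 82.5 and 82.1 CPM to 59.5, 61.2 and 60.7 CPM (-0.43 ± 0.049; adjusted p = 9.269e-09). The largest relative change of any member was that of DSG3 in Hth83, from 4.91, 6.03 and 6.83 CPM to 1.09, 1.78 and 1.14 CPM (-2.15 ± 0.212; adjusted p = 6.911e-10). All 3 CAP libraries were below all 3 controls there, although the gene had only 182 to 218 counts per Control library and 39 to 56 per CAP library. DSG3 took a smaller part of the desmoglein TPM after CAP in each of these lines, with 37.1% ± 0.666 in Cal27, 29.5% ± 0.741 in Fadu and 0.677% ± 0.183 in Hth83.

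DSG2 moved apart between the lines. In Fadu it fell from 564, 576 and 569.7 CPM to 382, 397 and 363 CPM (-0.58 ± 0.031; adjusted p = 1.45e-30) and in Hth83 from 363, 389 and 398 CPM to 311, 325 and 328 CPM (-0.25 ± 0.045; adjusted p = 1.852e-05). In Cal27 it rose from 140.5, 142 and 147 CPM to 162, 169 and 174 CPM (0.23 ± 0.041; adjusted p = 1.605e-05). In A375 it stood at 90.6 ± 2.46 CPM (SD, n = 3) without and 89.8 ± 1.91 CPM with CAP, and the difference of -0.01 ± 0.043 did not pass.

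Both desmocollins fell in Fadu and rose in Cal27. DSC3 in Fadu went from 344, 346 and 347 CPM to 158, 144.9 and 128 CPM, a loss of 58.5% (-1.27 ± 0.063; adjusted p = 2.128e-08). In Cal27 DSC3 rose from 35.4, 39.3 and 39.1 CPM to 45.5, 42.7 and 42.3 CPM (0.20 ± 0.062; adjusted p = 0.00889). This call was lost without Cal27 Control 1 (0.15, adjusted p = 0.0765) or CAP 1 (0.16, adjusted p = 0.0510). It was also lost in edgeR with a length trend removed (0.14, adjusted p = 0.0734). In Hth83 DSC3 went from 119.5, 120 and 119.7 CPM to 108, 109 and 109.6 CPM (-0.13 ± 0.047; adjusted p = 0.0187), a call lost without Control 2 or CAP 1 (adjusted p = 0.0555 and 0.0567) and with library size alone (-0.09). DSC2 changed by -0.20 ± 0.044 in Fadu (98.5 ± 4.63 to 86.1 ± 2.73 CPM, SD, n = 3; adjusted p = 9.147e-05, but 0.0716 with library size alone) and by 0.31 ± 0.086 in Cal27 (18.6 ± 2.03 to 23.0 ± 1.73 CPM; adjusted p = 0.00382). In Hth83 it did not pass, at 39.8 ± 1.95 and 38.8 ± 1.31 CPM.

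In A375 both desmocollins were near the threshold. DSC2 went from 4.43, 5.03 and 4.74 CPM to 3.77, 3.81 and 3.46 CPM (-0.36 ± 0.15; adjusted p = 0.0453) and DSC3 from 17.8, 17.4 and 17.7 CPM to 15.1, 15.2 and 15.7 CPM (-0.20 ± 0.080; adjusted p = 0.0371). The groups did not overlap for either gene. Both calls were lost whichever of the 6 libraries was left out, with adjusted p from 0.0558 to 0.142 for DSC2 and from 0.0568 to 0.0968 for DSC3. In each of those fits 3 members were called, against 5 with all libraries, and calls over all genes in those fits are not given here. Within the desmocollins the part of DSC3 in their summed TPM went from 74.2% ± 0.945 to 57.6% ± 2.01 (SD, n = 3) in Fadu, the larger fall being that of DSC3.

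**Figure D3:**
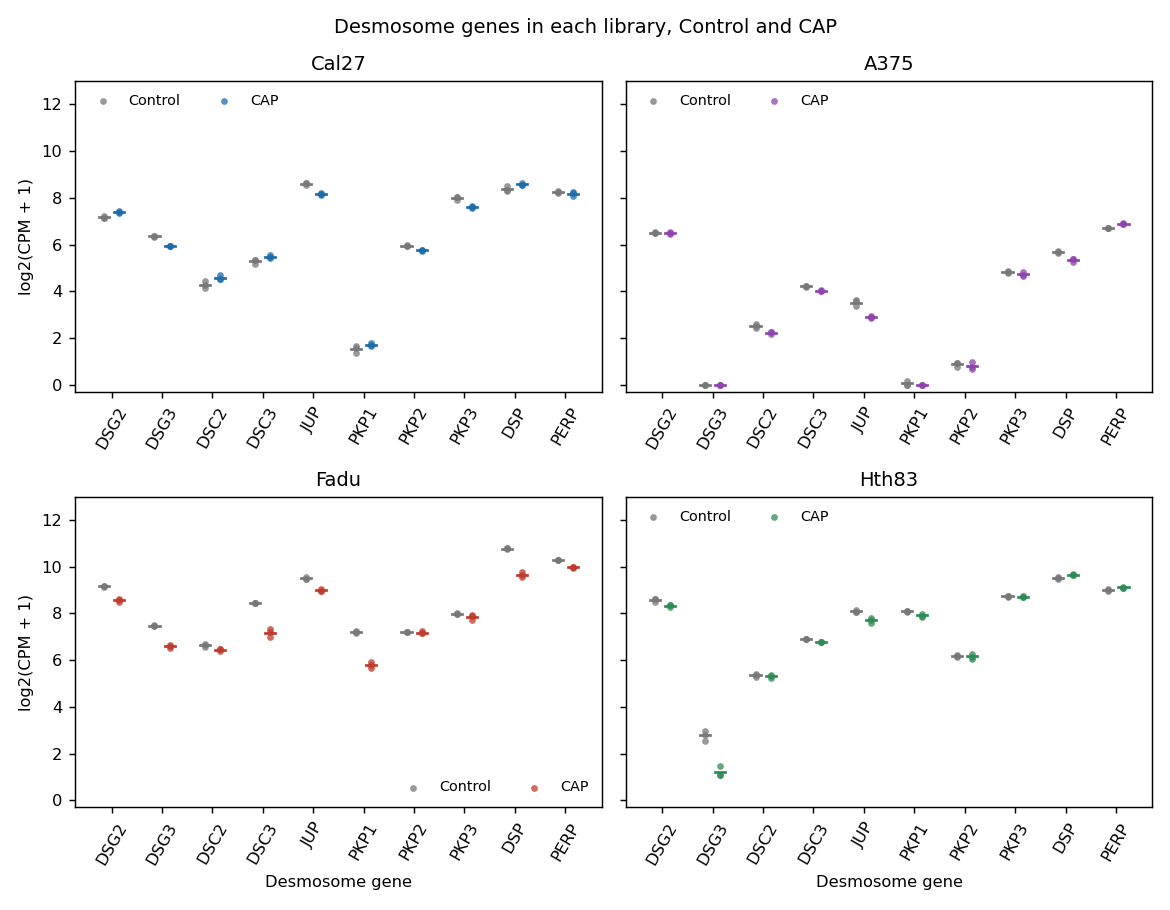
Level of each desmosome gene in each library of the 4 lines as log2(CPM + 1), Control in grey and CAP in the colour of the line, with bars at the mean of 3. In Fadu the CAP points lie below the Control points for every gene but PKP2, while in Cal27 they lie above for DSG2, DSC2, DSC3, DSP and PKP1 (which did not pass) and below for DSG3, JUP, PKP2 and PKP3.

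JUP fell in all 4 lines, the only member to do so among the 8 tested in all of them. Of 14240 genes tested in all 4 lines, 1.29% fell in each, and 1.35% rose in each, which no member did. In Fadu JUP went from 755, 722 and 718 CPM to 529.5, 496 and 501 CPM (-0.52 ± 0.030, SE; adjusted p = 1.594e-28). In Cal27 it went from 395, 391 and 370.4 CPM to 298, 288 and 278 CPM (-0.42 ± 0.037; adjusted p = 3.627e-11). In Hth83 it went from 264, 268 and 279 CPM to 210.2, 224 and 193 CPM (-0.37 ± 0.050; adjusted p = 2.232e-07) and in A375 from 9.30, 11.3 and 10.8 CPM to 6.18, 6.49 and 6.78 CPM (-0.68 ± 0.113; adjusted p = 7.501e-06). Control and CAP libraries did not overlap in any line. JUP kept its direction and passed with RLE scaling, with library size alone, with DESeq2 and by limma on log2(TPM + 1), where it fell least in Cal27 (-0.18, adjusted p = 0.0111). The interaction of JUP was also the weakest of those that passed (adjusted p = 0.00943).

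Plakophilins parted by paralog. PKP1 in Fadu fell from 149.9, 143 and 148 CPM to 59.9, 54.02 and 50.04 CPM, a loss of 62.9% and the largest change of a member in that line (-1.43 ± 0.047; adjusted p = 5.049e-41). In Hth83, where it was highest, it fell from 276, 269 and 275 CPM to 237, 254 and 229.9 CPM (-0.18 ± 0.046; adjusted p = 0.00114), and limma on log2(TPM + 1) gave -0.12 (adjusted p = 0.0863). In Cal27 it went from 1.55, 2.11 and 1.98 CPM to 2.21, 2.15 and 2.47 CPM, on 42 to 59 counts per Control library, and did not pass (0.27 ± 0.230; adjusted p = 0.363). The PKP1 part of the plakophilin TPM in Fadu went from 11.95% ± 0.0938 to 5.22% ± 0.504 (SD, n = 3), and in Hth83 from 13.5% ± 0.233 to 12.2% ± 0.330.

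PKP2 passed in Cal27 alone, from 60.9, 59.7 and 61.7 CPM to 54.2, 51.3 and 53.1 CPM (-0.20 ± 0.053; adjusted p = 0.00196). Its direction there depended on the scaling, since limma on log2(TPM + 1) gave 0.03 (adjusted p = 0.675), and library size alone gave -0.12 (adjusted p = 0.0623). In Fadu, where most members fell, PKP2 stood at 148, 147 and 146 CPM without and 140.9, 149 and 142 CPM with CAP, and the change of -0.03 ± 0.038 did not pass. PKP3 fell in Cal27 from 259.9, 265 and 239.6 CPM to 193, 189.8 and 197 CPM (-0.40 ± 0.039; adjusted p = 5.671e-10). In Fadu it went from 256, 248 and 252 CPM to 242, 209.9 and 239 CPM (-0.13 ± 0.038; adjusted p = 0.00231), a call lost without Fadu CAP 2 (-0.07, adjusted p = 0.0941) and with library size alone (-0.03). PKP3 did not pass in A375 (-0.08 ± 0.069) or Hth83 (-0.02 ± 0.041), and PKP2 did not pass in A375 (-0.12 ± 0.343) or Hth83 (-0.02 ± 0.059).

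DSP moved in opposite directions in the lines. In Fadu it fell from 1770, 1717 and 1760 CPM to 863, 792 and 765 CPM, a loss of 53.9% (-1.12 ± 0.031, SE; adjusted p = 8.974e-36). In A375 it fell from 48.5, 52.0 and 50.7 CPM to 37.0, 40.5 and 40.7 CPM (-0.35 ± 0.057; adjusted p = 4.902e-06). In Cal27 it rose from 320, 313 and 361 CPM to 399, 378 and 368 CPM (0.20 ± 0.044; adjusted p = 0.000472). In Hth83 it rose from 705, 759.7 and 733 CPM to 794, 814 and 809 CPM (0.14 ± 0.042; adjusted p = 0.00642), a call lost without Hth83 Control 1 (0.11, adjusted p = 0.0658). In each line the CAP libraries lay outside the range of the controls.

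PERP moved by small amounts and in both directions. It fell in Fadu from 1255, 1251 and 1244 CPM to 1020, 1021 and 979.8 CPM (-0.31 ± 0.028; adjusted p = 8.375e-18) and rose in A375 from 104, 104 and 104 CPM to 119, 118 and 116 CPM (0.17 ± 0.040; adjusted p = 0.00053). In Hth83 it went from 504, 526 and 516 CPM to 547, 547 and 569 CPM (0.10 ± 0.042; adjusted p = 0.0371). That call was lost when Control 1, Control 3, CAP 1 or CAP 3 of Hth83 was left out, with values of 0.09, 0.10, 0.11 and 0.08 and adjusted p from 0.0745 to 0.153. In Cal27 PERP did not pass (-0.08 ± 0.041), and its sign turned with library size alone (0.0036).

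The scaling matters most for Cal27. There, limma on log2(TPM + 1) placed the median of all genes at 0.198, and 83.4% of its called genes were higher with CAP, against 48.5% in the count test. Scaling by library size alone gave 62.4% higher in Cal27, 61.8% in Fadu (49.3% with TMM), where it moved the median of all genes to 0.114, and 39.8% in A375 (51.0% with TMM). In Hth83, limma on log2(TPM + 1) without a filter gave 61.8% (51.7% with TMM). By library size alone the count in Fadu was 7 members lower and none higher, where 61.8% of all called genes were higher. The share of all tested Fadu genes that this scaling called lower is not given here. DSG2, DSC2, DSC3 and DSP rose and DSG3, PKP3 and JUP fell in Cal27 under both of these scalings.

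PKP4, a plakophilin relative found mostly outside desmosomes, is the other expressed member of these families. It fell in Fadu (101 ± 4.25 to 80.3 ± 1.802 CPM, SD, n = 3; -0.33 ± 0.044, SE; adjusted p = 2.749e-10) and in A375 (68.5 ± 4.07 to 55.5 ± 2.10 CPM; -0.31 ± 0.052; adjusted p = 1.062e-05). In Cal27 it rose by 0.13 ± 0.042 (adjusted p = 0.0127), a call lost without Cal27 CAP 2 (0.10, adjusted p = 0.0998) and turned by removal of a length trend, and in Hth83 it did not pass (0.06). DSG1 in A375, on 9 to 49 counts per Control library and 2 to 8 with CAP, fell (-1.82 ± 0.573; adjusted p = 0.00862), a call lost without A375 CAP 2 (-1.41, adjusted p = 0.0526). DSG1 did not pass in Fadu (0.07), and DSG4 and DSC1 were too low to be tested in any line.

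Lists of partner genes show which other junctions moved beside the desmosome in Fadu. Of 12 adherens junction genes 10 fell and 1 rose (median -0.24), and CDH1 fell from 374 ± 1.09 to 229 ± 7.66 CPM (SD, n = 3; -0.71 ± 0.033, SE; adjusted p = 6.124e-35). Of 11 tight junction genes 6 fell and 2 rose (median -0.11), with CLDN1, which seals epidermal tight junctions, at -1.67 ± 0.037 and TJP3 at -1.76 ± 0.134. Hemidesmosome genes, which fix epithelial cells to the basement membrane, went the other way, as 6 of 7 rose and none fell (median 0.23), with ITGA6 at 0.57 ± 0.037. Of the 9 tested filament partners 6 fell and 3 rose. KRT5, the basal keratin, fell from 4085 ± 97.5 to 1281 ± 129 CPM (-1.67) and its partner KRT14 from 446 ± 11.2 to 262 ± 13.2 CPM (-0.77 ± 0.033). The plakins PPL and DST, cousins of desmoplakin, fell by 0.82 ± 0.031 and 0.84 ± 0.033 on the log2 scale, in a list where 3 of 5 fell and 2 rose. These counts stand beside 27% of all Fadu genes falling and 26.3% rising.

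Regulators of epithelial genes in Fadu are given from the same kind of list. Of 11 epithelial transcription factors 8 fell and 2 rose (median -0.60), with TP63, the master factor of stratified epithelium, at 451 ± 10.1 and 278 ± 13.1 CPM (SD, n = 3; -0.69 ± 0.033, SE; adjusted p = 2.478e-34) and GRHL2 at -0.60 ± 0.040. Of 5 tested repressors 4 rose and none fell (median 0.66). Over all genes tested in Fadu, 26.3% rose and 27% fell. By limma on log2(TPM + 1) 2 repressors rose, and limma calls over all Fadu genes are not given here. Of the 6 repressors listed 2 were over 10 CPM in the controls, the highest at 43.9 CPM. TWIST2 went from 11.5 ± 1.24 to 18.1 ± 1.81 CPM. SNAI1 and ZEB1 were low, going from 1.17 ± 0.253 to 2.59 ± 0.344 CPM and from 0.574 ± 0.219 to 1.28 ± 0.0672 CPM. VIM was at 4 to 6 counts per Control library and 8 to 15 with CAP, below the test's filter. The summed level of the 12 squamous markers went from 10880 to 11300 CPM in the controls to 6093 to 6618 CPM with CAP, with 5 markers rising and 6 falling, and its part in the change of the desmosome genes was not tested.

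In Cal27 the partners moved otherwise. Counts from edgeR here stand beside 21.9% of all Cal27 genes rising and 23.2% falling. Of 9 tested filament genes 8 fell and none rose (median -0.68), with KRT5 going from 267 ± 3.46 to 106 ± 2.45 CPM (SD, n = 3; -1.34 ± 0.039, SE), KRT17 at -1.63 ± 0.073 and KRT14 at -1.26. Of 7 hemidesmosome genes 5 fell and 1 rose, led by ITGB4 (-0.55 ± 0.032) and COL17A1 (-0.49 ± 0.030). By limma on log2(TPM + 1), where most called genes of all kinds were higher with CAP, 3 rose and 3 fell. Adherens and tight junctions each had 5 genes that rose and 3 that fell (medians 0.085 and 0.049). CDH3 (-0.41 ± 0.037) and CLDN1 (-0.59 ± 0.035), named for the smallest p of their lists, were among those that fell. CDH1 did not pass (-0.07), and its sign turned with library size alone and by TPM. The plakins MACF1 and DST rose by 0.51 ± 0.045 and 0.37 ± 0.041. TP63 fell from 341 ± 21.5 to 226 ± 5.75 CPM (-0.60 ± 0.040; adjusted p = 1.164e-13), ZEB1 rose from 3.01 ± 0.338 to 5.33 ± 0.351 CPM, and SNAI2 fell (-0.71 ± 0.055). The 12 squamous markers, all of which fell, summed to 5911 to 6204 CPM in the controls and 4223 to 4238 CPM with CAP, and their part in the desmosome changes was not tested.

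In Hth83 the filament and hemidesmosome partners fell beside JUP and DSG3. Over all genes tested in Hth83, 25.9% rose and 24.2% fell. Of 10 filament genes 8 fell and 1 rose, with VIM at -0.43 ± 0.042 and KRT14 at -1.25 against KRT5, which rose from 132 ± 3.32 to 201 ± 9.19 CPM (SD, n = 3; 0.60 ± 0.048, SE). Of 7 hemidesmosome genes 5 fell and 1 rose, led by ITGB4 (-0.90 ± 0.041) and LAMB3 (-0.78 ± 0.041), and of 9 tight junction genes 4 fell and 1 rose, led by OCLN (-0.78 ± 0.086) and TJP1 (-0.65 ± 0.054). Epithelial transcription factors fell in 7 of 9 cases and none rose, with KLF4 at -2.33 ± 0.083, KLF5 at -1.08 ± 0.048 and TP63 at -0.22 (390 ± 11.3 to 334 ± 27.3 CPM). ZEB1 did not pass (-0.006). The squamous markers, of which 9 fell and 3 rose, summed to 7601 to 8091 CPM in the controls and 5056 to 5437 CPM with CAP, and their part in the changes was not tested.

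In A375, 3 of 10 filament, 2 of 11 tight junction and 2 of 11 transcription factor genes were over 10 CPM in the controls, against 8 of 12 adherens junction genes. Of 5 tested filament genes 2 rose and 1 fell, with KRT14 going from 1.42 ± 0.275 to 5.50 ± 0.686 CPM (SD, n = 3; 1.96 ± 0.189, SE; adjusted p = 4.085e-10) and KRT18 at 0.39 ± 0.042, while VIM did not pass (-0.03). Of 11 adherens junction genes 4 fell and 3 rose, with NECTIN1 at 0.49 ± 0.065 and CTNNB1 at 0.24 ± 0.034. Over all genes tested in A375, 24.8% fell and 25.7% rose. ZEB1 fell from 91.2 ± 2.26 to 67.7 ± 1.81 CPM (-0.43 ± 0.045). CDH1, TP63 and KRT5 had too few counts to be tested, with 1, 2 and 8 counts over the 3 Control libraries.

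**Figure D4:**
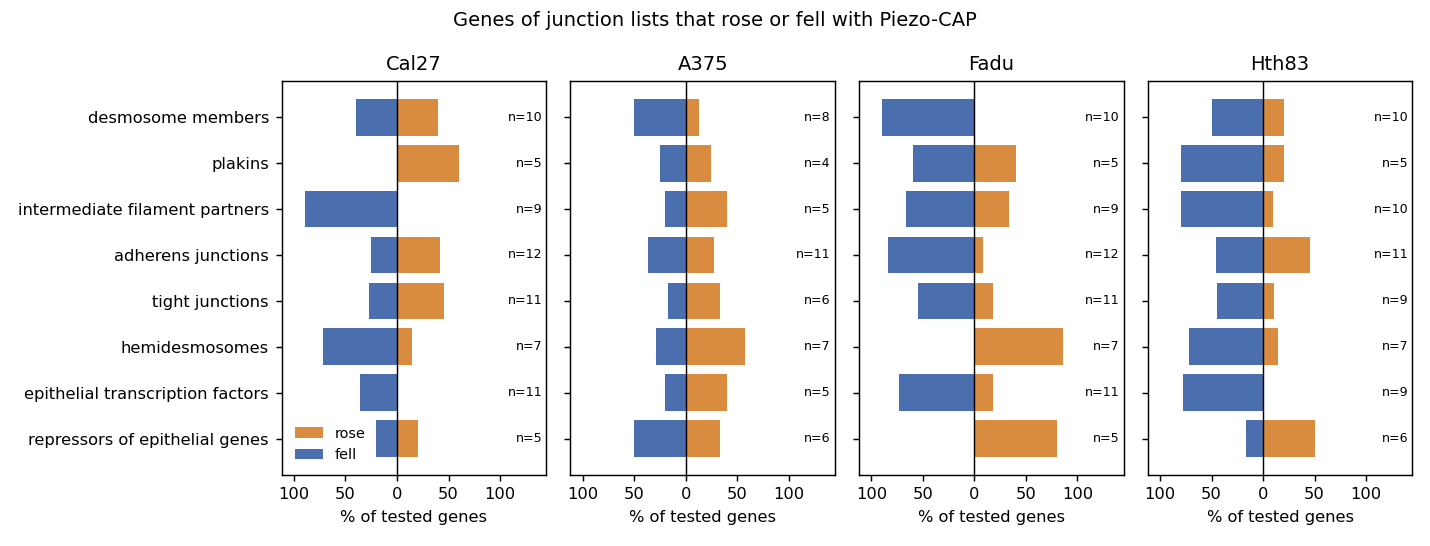
Share of the tested genes of each list that rose (orange, to the right) or fell (blue, to the left) with CAP in each line, in percent, with the number tested at the right edge. In Fadu the bars of the desmosome members and adherens junctions point left and those of the hemidesmosomes and repressors point right, whereas in Cal27 the desmosome bar is even.

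Genes with a like profile were ranked over the 8 group means. Each of 12132 genes with at least 10 CPM in a group was compared with the mean centred log2(CPM + 1) of the 10 members by its mean absolute difference. SCNN1A, a subunit of the epithelial sodium channel, was nearest at 0.157 on the log2 scale, nearer than any member itself, of which DSP at 0.171 was the closest. CAMSAP3 (0.359), CCDC88C (0.373), PSTPIP2 (0.390) and C2CD2 (0.394) followed. The members farthest from their own mean were DSG3 (1.82) and PKP1 (1.81). The 8 points are 4 lines with 2 groups each, so this likeness rests mostly on differences between lines.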

How the data were processed

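RNA from 24 libraries (4 lines, Control and CAP, 3 each) was sequenced as mRNA, and the authors deposited for each line a table of read counts per gene and TPM (transcripts per 1000000) in the same rows. HISAT2 and GRCh38 are named in the submitters' processing notes, without versions; the counting tool is not named there. The deposited TPM derive from the deposited counts, since 1 length per gene and 1 factor per library give their ratio to within 5.884e-15. Of 61533 genes, 61415 took symbols from a symbol table and 105 from GENCODE 29; the 37 mitochondrial genes hold no counts.

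Counts were fitted per line in R 4.3.3 with edgeR 4.0.16 (filterByExpr, minimum count 10, TMM, robust quasi-likelihood test, Benjamini-Hochberg at 0.05). The 12 untreated libraries were fitted together for levels, and all 24 for the interaction. SE is the log2 fold change, without its sign, divided by the square root of F. Alternatives used limma 3.58.1 on log2(TPM + 1) and DESeq2 1.42.0, among others. The scripts were tested on simulated data. Besides the 10 members, each list names at most 2 genes per line with the smallest p, and always DSG1, DSG4, DSC1, PKP4, CDH1, TP63, KRT5, KRT14, VIM and ZEB1. Members and lists were chosen with earlier results of these data known. Replicate numbers did not pair the libraries. A gene that the naming rule picked is not reported here.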

Additional observations from a re-analysis of the deposited data

Results flagged for a closer look

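The response to CAP differed between the 4 lines for 9 desmosome genes, by the test of that difference itself in edgeR's joint quasi-likelihood fit of 24 libraries, adjusted over all genes tested. The adjusted p was 1.38e-23 for DSP, 1.076e-22 for DSC3, 6.43e-18 for PKP1, 2.238e-16 for DSG2 and 3.821e-12 for DSG3. It was 3.811e-10 for PERP, 2.806e-06 for PKP3, 1.394e-05 for DSC2 and 0.009426 for JUP. The same test passed for 56.9% of all genes. In that fit the log2 fold changes of DSP were 0.20 in Cal27, -0.38 in A375, -1.11 in Fadu and 0.13 in Hth83, and those of JUP were -0.42, -0.70, -0.51 and -0.38.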

How the results depend on the processing

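Low counts limit DSG3 in Hth83, PKP1 in Cal27 and PKP2 in A375. With library size alone, values turned for PERP (0.0036) and CDH1 (0.0084) in Cal27, PKP2 in Fadu (0.0742) and DSC2 (0.0105), PKP2 (0.0253), PKP3 (0.0277) and ZEB1 (0.0427) in Hth83. With a length trend removed they turned for PKP4 in Cal27 (-0.0261), PKP2 in Fadu (0.0816) and ZEB1 in Hth83 (0.0019), and without a count filter for ZEB1 there (0.0024). By limma on log2(TPM + 1), with or without a filter, and on log2(TPM + 0.1), they turned in Cal27 for PKP2 (0.0282 and 0.032), PERP (0.1539 and 0.1546) and CDH1 (0.1577 and 0.1628), and in Hth83 for DSC2 (0.0235 and 0.0252), PKP2 (0.0346 and 0.0377) and PKP3 (0.0424 and 0.0425). Untreated PKP3 in Cal27 less Fadu became -0.1992 and -0.1999. Without a filter VIM in Cal27 (0.0214) and ZEB1 in Hth83 (0.0233) also turned. The cause was not tested.

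Called members fell to 3 in Cal27, 1 in A375 and 2 in Hth83 under a required fold of 1.2, where calls over all genes went from 7832 to 2927, 9900 to 4626 and 8657 to 4636, and in Fadu from 10200 to 5616. In A375 they were 3 without a count filter, with DESeq2 and by unfiltered TPM (5772 of all genes called there, 40.5% of them higher), and in Hth83 4 by unfiltered TPM. Calls over all genes are not given here for DESeq2, the fits without a count filter, the unfiltered TPM fit of Hth83, the leave-out fits or the replicate block. A change of the member counts in those fits is thus not set against the change over all genes. Leaving out 1 library gave 7 to 8 called members in Cal27, 3 in A375, 8 to 9 in Fadu and 5 to 7 in Hth83. It also ranged over 0 for DSG2 (-0.0306 to 0.0133), PKP2 (-0.3706 to 0.0334) and VIM (-0.0561 to 0.008) in A375, DSG1 in Fadu (-0.2883 to 0.2791), and PKP2 (-0.0842 to 0.0272) and ZEB1 (-0.0863 to 0.0677) in Hth83. A replicate block gave 8 called members in Cal27, 4 in A375 (DSC2 lost, adjusted p = 0.0588), 9 in Fadu and 6 in Hth83 (PERP lost, adjusted p = 0.0553). The numbers did not pair libraries, with same-number correlations from -0.032 to 0.05, and 5 of the 12 numbers over the 4 lines had their own number as the best partner. All 10 members differed between untreated lines in every leave-out fit.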

Other observations

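Enzymes and kinases that act on desmosomes were a further list. Over all genes tested, 26.3% rose and 27% fell in Fadu, and 21.9% rose and 23.2% fell in Cal27. The shares were 25.9% and 24.2% in Hth83, and 25.7% and 24.8% in A375. In Fadu 5 of 9 fell and none rose (median -0.31), with ADAM10, a protease that sheds cadherins, going from 224 ± 4.74 to 139.6 ± 9.54 CPM (SD, n = 3) and EGFR from 977 ± 6.21 to 769 ± 8.44 CPM. In Cal27 4 of 9 rose and 2 fell, with ADAM17 at 0.45 and ADAM10 at 0.36 on the log2 scale, both higher with CAP. In Hth83 2 of 6 rose and 3 fell, with ADAM17 at -0.68 and MAPK14 at 0.41. In A375 3 of 7 rose and 2 fell, with PRKCA at -0.30 and RHOA at 0.15. ADAM10 and ADAM17 thus rose in Cal27, while ADAM10 fell in Fadu and ADAM17 in Hth83.

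The remaining lists were mixed. Their counts from edgeR stand beside the same shares of all genes in each line. In Hth83 4 of 5 plakins fell and 1 rose, with PPL at -1.48, 5 of 11 adherens junction genes rose and 5 fell, and 3 of 6 repressors rose and 1 fell. In that line SNAI2 was higher by 0.23, a call lost without Hth83 Control 1 (0.15). In Cal27 4 of 11 epithelial transcription factors fell and none rose, and 1 of 5 repressors rose and 1 fell. By limma on log2(TPM + 1) 4 of the transcription factors there rose and 1 fell, where most called genes of all kinds were higher with CAP. In A375 4 of 7 hemidesmosome genes rose and 2 fell, and none passed by limma on log2(TPM + 1). Calls over all A375 genes by that limma fit are not given here. By edgeR 2 of 6 repressors in A375 rose and 3 fell, with SNAI1 at -0.71, and 2 of 6 tight junction genes rose and 1 fell.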
